A study of Mus musculus with 8 samples.

Results

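Among the miRs measured in fracture callus were the arms of miR-146a, miR-146b, miR-155, miR-21, miR-132 and miR-212, a set known for its induction by inflammatory signals. The members were chosen by name, as every arm of these 6 miRs on the array, and 12 of the 1079 murine miRs were found. Total RNA came from the callus of adult male and female CD-1 mice, taken 7 days after a femoral osteotomy that was held open by a metal clip over an intramedullary pin. In the Non-union group (n = 4, specimens P13 to P16) the gap measured 1.8 mm and the periosteum beside it was stripped. In the Union group (n = 4, specimens P17 to P20) the gap measured 0.25 mm and the periosteum was not stripped. The groups thus differed in gap size and in periosteum together, and these samples held no unoperated bone. Each mouse gave 1 array of a single slide, and each group filled 1 row of that slide, so that row and group cannot be told apart.

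MiRs are short RNAs cut from a hairpin precursor. Bases 2 to 8 of the mature strand, the seed, pair with target mRNAs, which are then repressed. Toll-like receptors and cytokine receptors act through NF-κB to raise miR-146a and miR-155. MiR-146a and its relative miR-146b repress Irak1 and Traf6, which signal downstream of Toll-like receptors, and so act as a brake. MiR-155 represses Socs1 and Inpp5d and so favours activation of macrophages and lymphocytes. MiR-21 is raised by STAT3 and AP-1 and represses Pdcd4. MiR-132 and miR-212 come from 1 shared transcript that is raised by CREB. In the early callus, an inflammatory phase with neutrophils and macrophages precedes the formation of cartilage and woven bone.

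The mature sequences of the 7 members detected on every array are given because the seed groups them into families. RefSeq (GRCm38.p6) held all 12 members, and it names miR-21 as miR-21a. Sequences run 5′ to 3′ and the seed is in capitals.
mmu-miR-146a-5p: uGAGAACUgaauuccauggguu
mmu-miR-146b-5p: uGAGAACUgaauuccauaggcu
mmu-miR-132-3p: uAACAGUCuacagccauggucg
mmu-miR-212-3p: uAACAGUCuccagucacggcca
mmu-miR-155-5p: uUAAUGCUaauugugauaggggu
mmu-miR-21-5p: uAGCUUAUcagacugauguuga
mmu-miR-21-3p: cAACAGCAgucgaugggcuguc

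MiR-146a-5p and miR-146b-5p shared their seed and 20 of 22 bases, and differed by G18A and U21C, where positions count from 1 at the 5′ end and the base of miR-146a-5p stands first. MiR-132-3p and miR-212-3p shared their seed and 17 of 22 bases, and differed by A10C, C14U, U17C, U20C and G22A, with the base of miR-132-3p first. The differences of both pairs lay 3′ of the seed. Probes for relatives this close can bind each other's miR in part, and the extent of this was not tested. The seeds of miR-155-5p and miR-21-3p were found in no other RefSeq mouse miR, and that of miR-21-5p was found in miR-21c.

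In GRCm38.p6 Mir212 (chr11:75173388-75173478, plus strand) and Mir132 (chr11:75173682-75173747, plus strand) lay 203 bases apart. Mir21a (chr11:86584067-86584158, minus strand) lay within Vmp1, Mir155 (chr16:84714140-84714204, plus strand) within the lncRNA Mir155hg, and Mir146b (chr19:46342762-46342870, plus strand) within the lncRNA Gm36493. Mir146 (chr11:43374397-43374461, minus strand), the precursor of miR-146a, lay within no other annotated gene. The hairpins of the cluster and of Mir21a show which arm was detected, in capitals.
Mir132: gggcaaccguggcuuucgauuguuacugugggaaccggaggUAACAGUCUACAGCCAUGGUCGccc
Mir212: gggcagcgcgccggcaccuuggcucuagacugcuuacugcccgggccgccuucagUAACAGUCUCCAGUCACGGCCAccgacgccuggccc
Mir21a: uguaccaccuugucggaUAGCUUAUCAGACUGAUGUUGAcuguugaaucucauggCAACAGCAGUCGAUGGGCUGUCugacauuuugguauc

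Detection separated the arms. The scanner software called miR-146a-5p, miR-146b-5p, miR-155-5p, miR-132-3p, miR-212-3p and both arms of miR-21 detected on all 8 arrays. The other 5 members, miR-146a-3p, miR-146b-3p, miR-155-3p, miR-132-5p and miR-212-5p, were detected on none. Of the 6 precursors, only Mir21a therefore gave signal from both arms. An undetected arm has only a bound, and no difference is given for these 5. Over all murine miRs, 310 were detected on every array and 657 on none.

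The arrays differed in ways that touch the members. On P20 of the Union group the mean normalized log2 signal of 5 leukocyte miRs (miR-223-3p, both arms of miR-142, miR-150-5p and miR-511-3p) was 9.36, against 8.04 to 8.20 on the other Union arrays and 7.63 to 8.50 on the Non-union arrays. The remaining 2 leukocyte miRs of the list, miR-223-5p and miR-511-5p, were detected on no array. P19 of the Union group lay among the Non-union arrays in other miRs. Its mean over 4 cartilage miRs (the arms of miR-140 and of miR-455) was 6.93, within the Non-union range of 6.47 to 8.69, whereas the other Union arrays lay between 5.67 and 6.20. Over 4 mesenchymal miRs (both arms of miR-199a and miR-214) P19 had 9.50, again within the Non-union range of 9.003 to 10.07, against 8.41 to 8.47 on the other Union arrays. P14 held the lowest Non-union value of both lists, below P19 but above P17, P18 and P20 of the Union group. Whether P14 and P19 carry the labels of the right group could not be settled from these arrays, and in normalized miR-132-3p they are the nearest arrays of the groups. Of the listed tissue markers, cartilage, mesenchymal, red blood cell and leukocyte miRs were detected on all arrays apart from the 2 leukocyte arms named above. The 4 listed miRs of skeletal muscle, which is not callus, were also detected on all arrays. Their mean normalized log2 signal was 12.33 on P16 of the Non-union group, against 13.10 to 13.61 on the other arrays of both groups. The source of this muscle signal was not tested. Neuronal miR-124-3p was detected on no array, but hepatic miR-122-5p was detected on 4, with normalized log2 signals of 5.96 on P13, 4.25 on P14, 1.94 on P15 and 1.84 on P17. The source of this liver miR, present on 3 Non-union arrays and 1 Union array, was not tested.

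Group comparisons used the log2 of the merged signal, quantile normalized over all murine miRs, and differences are Non-union minus Union on this scale. After Benjamini-Hochberg adjustment over the 310 tested miRs, limma called 0 of the 7 detected members at 0.05, against 1 of 310 (0.323%) of all tested miRs. At an unadjusted limma p under 0.05 the count was 1 of 7, miR-132-3p, against 43 of 310 (13.9%). No member had a fold change (FC) of 2 or more, which 26 of 310 (8.39%) had. The groups did not overlap in 1 of 7, again miR-132-3p, against 12 of 310 (3.87%). The share of members at an unadjusted p was thus close to that of all tested miRs, and a single member makes up each of these counts. The difference was above 0 for 3 members (miR-132-3p and both arms of miR-21) and below 0 for 4 (miR-146a-5p, miR-146b-5p, miR-155-5p and miR-212-3p). Of all 310 tested miRs, 184 lay above 0 and 126 below. The median difference was -0.16 over the members and 0.15 over all tested miRs. Without normalization the median over all tested miRs was -0.10, so that the scaling alone moved it from above 0 to below 0.

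**Figure D1:**
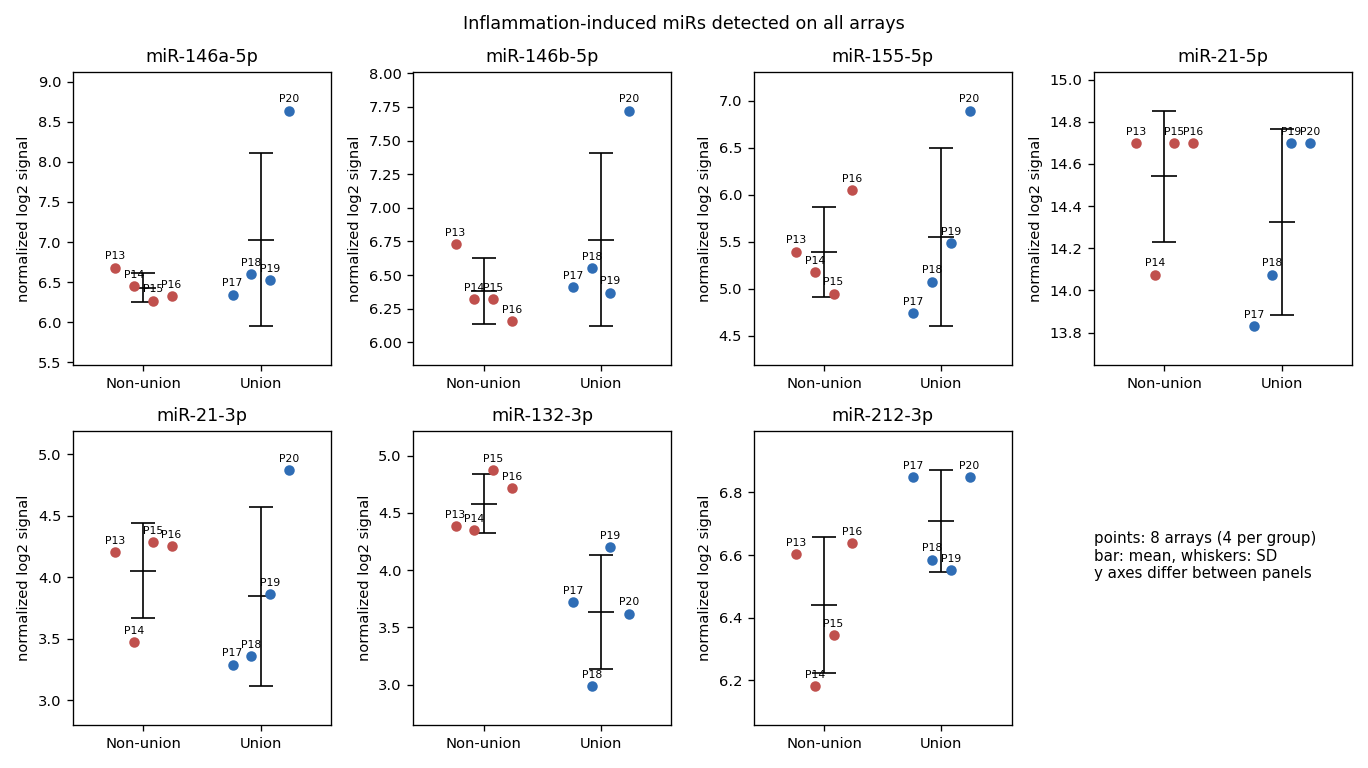
Normalized log2 signal (y axis, separate for each panel) of the 7 members detected on every array, for the 4 Non-union arrays (red) and the 4 Union arrays (blue), with the group mean and SD. P20 lies above every other array for miR-146a-5p, miR-146b-5p, miR-155-5p and miR-21-3p, and only for miR-132-3p do the groups not overlap.

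The miR-146 pair, the NF-κB brake, stood out on 1 Union array and did not pass the test between the groups. In merged signal units, miR-146a-5p gave 103.2, 96.3, 68.4 and 57.9 on P13 to P16, and 106.9, 105.3, 89.8 and 415.6 on P17 to P20. P17, P18 and P19 lay at the upper end of the Non-union range or just above it, and P20 alone was far higher. The normalized log2 signal of miR-146a-5p averaged 6.43 ± 0.18 (SD, n = 4) for Non-union, against 7.03 ± 1.08 (SD, n = 4) for Union. The difference was -0.60 (SE 0.47, 95% interval -1.67 to 0.47), which is within the spread of the arrays (limma adjusted p = 0.419, exact permutation p = 0.343, two-sided as all tests here). Without P20 it was -0.062 (SE 0.18).

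The merged signal of miR-146b-5p was 104.2, 85.9, 73.3 and 53.9 units on P13 to P16 and 109.5, 100.9, 82.0 and 217.1 on P17 to P20. The order of the arrays was the same as for miR-146a-5p within the Non-union group, and P20 was again the highest of all. In normalized log2 signal the groups had 6.38 ± 0.24 (SD, n = 4) and 6.76 ± 0.64 (SD, n = 4). The difference of -0.38 (SE 0.32, 95% interval -1.11 to 0.34) did not pass either test (limma adjusted p = 0.444, exact permutation p = 0.343), and without P20 it was -0.053 (SE 0.19).

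MiR-155-5p, which favours activation of macrophages and lymphocytes, gave 45.3, 38.8, 28.2 and 49.9 merged signal units on P13 to P16 and 34.8, 38.5, 40.2 and 107.2 on P17 to P20. The groups overlapped fully apart from P20. The normalized log2 signals were 5.39 ± 0.47 (SD, n = 4) for Non-union and 5.55 ± 0.95 (SD, n = 4) for Union. Their difference of -0.16 (SE 0.46, 95% interval -1.19 to 0.88) was smaller than the SD of either group (limma adjusted p = 0.835, exact permutation p = 0.800). Without P20 it turned to 0.30 (SE 0.31), so that 1 array set its direction.

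On P20 these 3 miRs were all at their highest. It lay above the mean of the other Union arrays by 2.15 on the log2 scale for miR-146a-5p, by 1.79 for miR-155-5p, by 1.37 for miR-21-3p and by 1.28 for miR-146b-5p, but by 0.50 for miR-21-5p, by 0.19 for miR-212-3p and by -0.018 for miR-132-3p. Its lead over the next highest of all arrays was 1.96 for miR-146a-5p, 0.995 for miR-146b-5p, 0.84 for miR-155-5p and 0.59 for miR-21-3p. Of all 310 tested miRs, 74 (23.9%) were highest on P20, and 32 (10.3%) were so by at least 0.5. Of the 7 members 4 were highest there, each by at least 0.5. Without normalization P20 was the highest for 5 of 7 members and for 66 of 310 tested miRs (21.3%). In normalized values P16 held the highest value of 83 tested miRs and of 0 members.

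Of the 5 detected leukocyte miRs, miR-223-3p and both arms of miR-142 were highest on the same array, and miR-511-3p and miR-150-5p were not. MiR-223-3p, a marker of neutrophils and other myeloid cells, had 13.83 on P20 against 10.75 to 12.05 on the other 7 arrays, and miR-142-3p, which blood cells in general express, had 12.77 against 10.48 to 10.98. MiR-511-3p, known from macrophages, had 7.01 on P20 and 6.68 to 7.07 on the other Union arrays, and miR-150-5p, known from lymphocytes, had 3.79 on P20 and 3.03 to 5.80 elsewhere. Over the 5 detected leukocyte miRs, 1 was higher and 4 were lower in the Non-union group. Of the 4, miR-223-3p (-1.13) and miR-511-3p (-0.59) had an unadjusted limma p under 0.05, and 0 passed after adjustment. Of all 310 tested miRs, 126 were lower in the Non-union group, 13 of them at an unadjusted limma p under 0.05. Without P20 the difference of miR-223-3p was -0.60 (SE 0.24). The list mean was 7.98 ± 0.41 (SD, n = 4) in the Non-union and 8.43 ± 0.62 (SD, n = 4) in the Union group (two-sided exact permutation p = 0.257). The difference of -0.45 was -0.14 without P20. This list was chosen with earlier results of these data known. In tissue RNA, fewer cells of a type and less RNA per cell cannot be told apart, and the part of leukocytes in the values of the members was not tested.

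**Figure D2:**
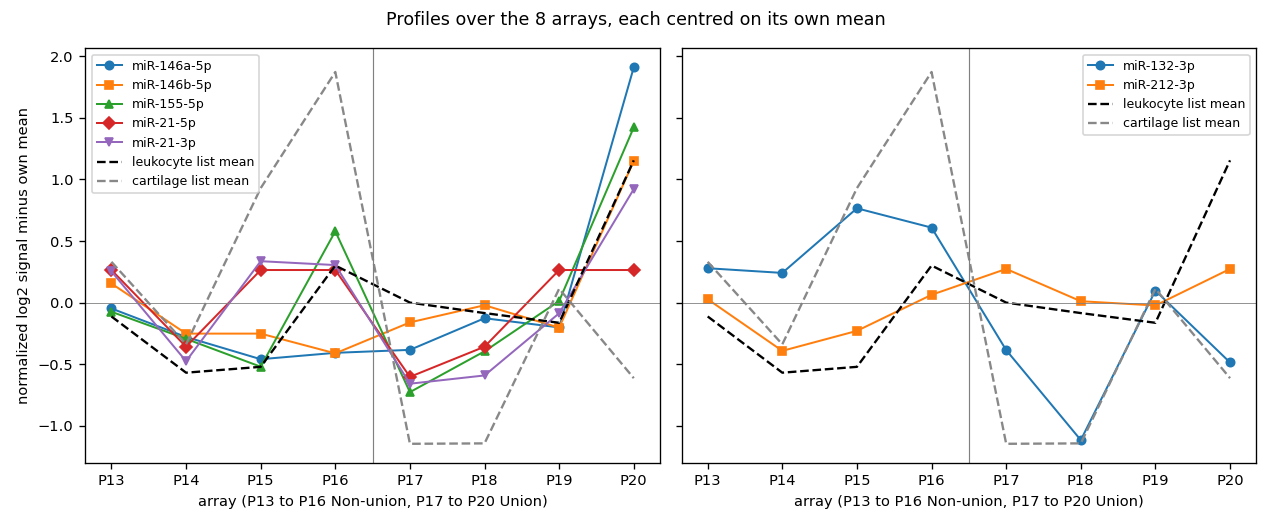
Normalized log2 signal of each detected member minus its own mean over the 8 arrays (y axis) on P13 to P20 (x axis), with the means of the leukocyte and cartilage miRs as dashed lines. MiR-146a-5p, miR-146b-5p, miR-155-5p and miR-21-3p peak on P20, as does the mean of the leukocyte miRs, while miR-132-3p is low on P17, P18 and P20.

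Neither arm of miR-21 passed the test between the groups. MiR-21-5p, the arm that represses Pdcd4, gave 26322, 22307, 23609 and 19775 merged signal units on P13 to P16 and 21976, 20689, 20647 and 34677 on P17 to P20. All arrays but P20 lay between 19775 and 26322 units, and no spot of any member was saturated. In normalized log2 signal the groups had 14.54 ± 0.31 (SD, n = 4) and 14.32 ± 0.44 (SD, n = 4), a difference of 0.22 (SE 0.27, 95% interval -0.39 to 0.83; limma adjusted p = 0.602, exact permutation p = 0.714). MiR-21-5p held place 2 to 4 among the merged signals of each array, and quantile normalization gives every array the same value at a place. On 5 arrays, P20 included, its normalized value was therefore the same, 14.70. Without normalization the difference was -0.062. Single arrays left out gave values from 0.053 without P17 to 0.41 without P14, with 0.37 without P19 and 0.31 without P20, and no such setting gave an adjusted call.

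MiR-21-3p, the other arm of the hairpin, gave 18.5, 12.5, 17.9 and 14.03 merged signal units on P13 to P16 and 14.7, 12.3, 15.1 and 27.1 on P17 to P20. P20 was the highest, and the other 7 arrays of both groups were mixed. The normalized log2 signals were 4.05 ± 0.39 (SD, n = 4) and 3.85 ± 0.73 (SD, n = 4), and the difference was 0.21 (SE 0.37, 95% interval -0.63 to 1.05; limma adjusted p = 0.720, exact permutation p = 0.686). Leaving out single arrays gave values from 0.032 without P17 to 0.55 (SE 0.27) without P20, with 0.41 without P14, and it was -0.084 without normalization.

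MiR-132-3p, an arm of the CREB-induced cluster known from neurons and from Toll-like receptor signalling, was higher on every Non-union array than on any Union array. Its merged signal was 20.6, 21.2, 26.6 and 19.3 units on P13 to P16 and 18.9, 9.89, 17.9 and 11.2 on P17 to P20. The groups did not overlap, but P16 and P17 came within 1 unit of each other, less than the error of 10.4% to 17.6% that the scanner software gave for these signals. In normalized log2 signal the arrays had 4.38, 4.35, 4.87 and 4.71 in the Non-union group and 3.72, 2.99, 4.20 and 3.62 in the Union group. Here the nearest arrays were P14 and P19. The means were 4.58 ± 0.26 (SD, n = 4) and 3.63 ± 0.50 (SD, n = 4), a 1.93-fold difference.

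The log2 difference of miR-132-3p was 0.95 (SE 0.28, 95% interval 0.32 to 1.57). It had an unadjusted limma p of 0.00745 and an exact permutation p of 0.0286, the smallest that 4 arrays against 4 allow, but it did not pass the adjustment over all tested miRs (limma adjusted p = 0.288). Leaving out P19 gave 1.15 and the only adjusted call of a member among the settings tried (limma adjusted p = 0.0473). Without any other single array the limma adjusted p was 0.229 to 0.619. Without P19 the non-member miR-214-5p had the same limma adjusted p of 0.0473. For miR-199a-5p, miR-214-3p and miR-511-3p it was 0.0509, 0.0524 and 0.0524 there. The share of all tested miRs called without P19 is not given here. The difference of miR-132-3p was 1.04 without P14 and 0.94 without P20. Unnormalized values gave 0.65, and quantile normalization restricted to the detected miRs gave 0.71. After normexp, a background correction that adds an offset of 50 to each spot signal, the difference was 0.17 (SE 0.069). The mean processed spot signal of the probes of miR-132-3p was at most 46.3 on any array.

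MiR-212-3p, which shares transcript and seed with miR-132-3p, had a difference of the opposite sign that did not pass the test. It gave 97.2, 78.7, 74.1 and 81.8 merged signal units on P13 to P16 and 149.3, 104.9, 90.1 and 106.5 on P17 to P20. Of the Non-union arrays, P13 lay above the lowest Union array, P19, and the others lay below all Union arrays. In normalized log2 signal the groups overlapped more, with 6.44 ± 0.22 (SD, n = 4) and 6.71 ± 0.16 (SD, n = 4). The difference of -0.27 (SE 0.19, 95% interval -0.70 to 0.16) passed neither test (limma adjusted p = 0.387, exact permutation p = 0.171), and it was -0.42 without normalization.

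**Figure D3:**
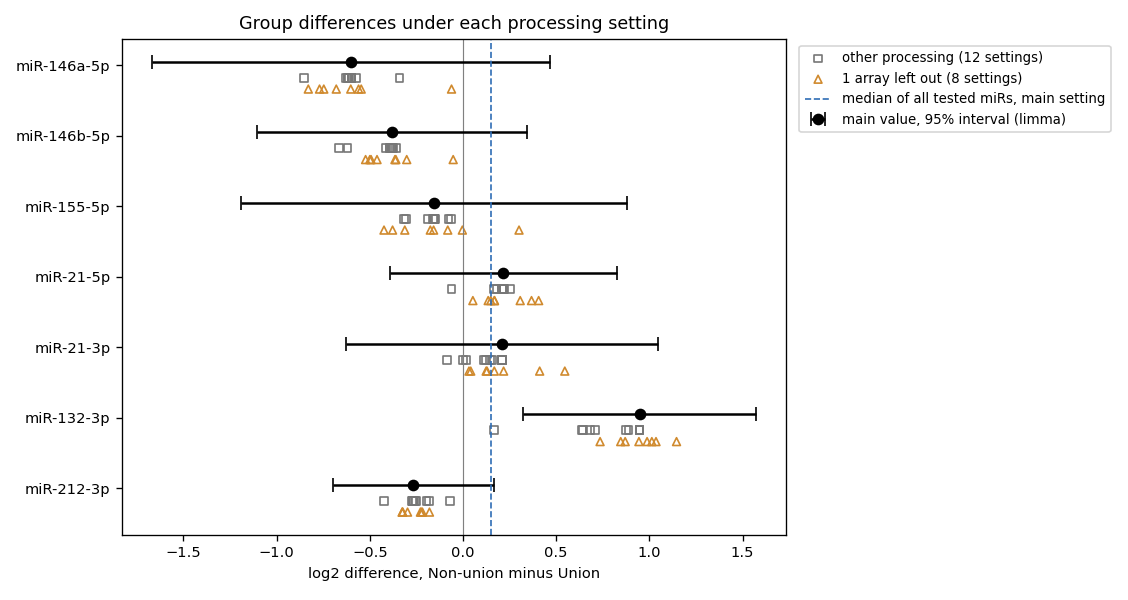
Log2 difference, Non-union minus Union (x axis), of each detected member: the main value with its 95% limma interval (black), 12 other processing settings (squares) and 8 settings with 1 array left out (triangles), and the median of all tested miRs (dashed line, 0.15). MiR-132-3p stays above 0 throughout, from 0.17 to 1.15, whereas the rightmost triangles of miR-146a-5p, miR-146b-5p and miR-155-5p, at -0.062, -0.053 and 0.30, are those without P20.

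Differences between related members within an array are not touched by a plain scaling of that array, though quantile normalization can change them. Of such pairs, 3 could be compared. The fourth planned pair, the arms of miR-132, had no value, since miR-132-5p was not detected. Levels of different probes are not on 1 scale, so that only the change of a within-array difference is read. MiR-132-3p minus miR-212-3p was -2.22, -1.84, -1.47 and -1.92 on P13 to P16 and -3.13, -3.60, -2.35 and -3.23 on P17 to P20. Every Non-union array lay above every Union array, with P13 and P19 the nearest. The group means were -1.86 ± 0.31 (SD, n = 4) and -3.08 ± 0.53 (SD, n = 4). The change of 1.21 (SE 0.30) had an exact permutation p of 0.0286 and, adjusted over the 3 pairs, of 0.0857. As 0.0286 is the smallest p possible here, the adjusted p of a single separated pair cannot fall below 0.0857. Without normalization the change was 1.07 (SE 0.29), and after normexp it was 0.24 (SE 0.12, exact permutation p = 0.114).

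MiR-146a-5p minus miR-146b-5p lay between -0.067 and 0.16 on 7 arrays and was 0.92 on P20. The groups changed by -0.22 (SE 0.23, exact permutation p = 0.543, adjusted over the pairs 0.814), and by -0.0089 (SE 0.080) without P20. The within-array difference of the 2 arms of miR-21 lay between 10.41 and 10.84 on 7 arrays and was 9.83 on P20. Its groups changed by 0.0085 (SE 0.23, exact permutation p = 1.0), and by -0.24 (SE 0.096, exact permutation p = 0.0857) without P20. Before normalization P20 had 10.32 and the other arrays 10.36 to 10.80.

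**Figure D4:**
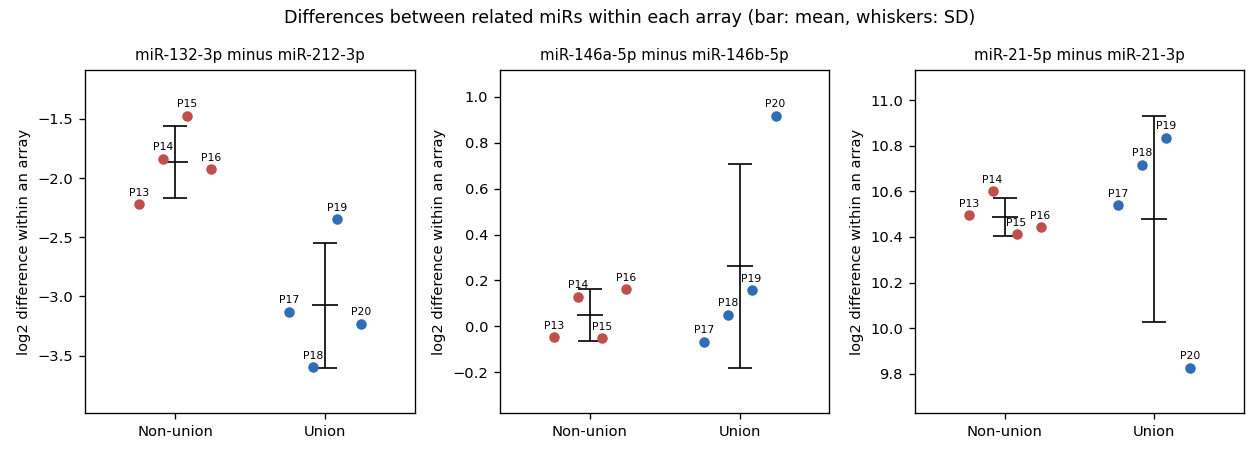
Within-array log2 difference (y axis, separate for each panel) of 3 pairs of related members on the 4 Non-union (red) and 4 Union (blue) arrays, with group mean and SD. MiR-132-3p minus miR-212-3p does not overlap between the groups. In the normalized values shown, P20 lies apart from the other 7 arrays for the other pairs. Before normalization P20 has 10.32 for the miR-21 arms, against 10.36 to 10.80 on the other arrays.

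The members were read by 16 probes, 4 for miR-21-3p and 2 for each of the other detected members, on 40 spots per miR. Of these, 15 gave a processed signal above 0 on every array, and the remaining one, a probe of miR-21-3p, did so on 2 arrays and was not tested. On the log2 processed signal minus the 75th percentile of the array, 0 of 15 probes had an exact permutation p under 0.05, before or after adjustment over the probes (smallest adjusted p = 0.429). Since no exact permutation p can lie below 0.0286 here, this adjustment could not have called a single probe on its own. Without this scaling the count at an unadjusted exact permutation p under 0.05 was 3 of 15. These were both probes of miR-132-3p (0.34 and 0.49) and 1 of miR-212-3p (-0.63). The share over all probes of the arrays was not computed, so that this count cannot be set against it. On the scaled values the probes of a member had the same sign in each case. Those of miR-132-3p were higher in the Non-union group by 0.52 (SE 0.23, exact permutation p = 0.114) and 0.67 (SE 0.25, exact permutation p = 0.0571). In both, P19 lay above P14, so that the groups overlapped on this scale. The probes of miR-212-3p differed by -0.46 (SE 0.20, exact permutation p = 0.0571) and -0.19 (SE 0.17, exact permutation p = 0.286). Those of miR-146a-5p gave -0.67 and -0.74, those of miR-146b-5p -0.58 and -0.43, and both of miR-155-5p -0.13. The 5 tested probes of the miR-21 arms lay between 0.064 and 0.12, and all of them lay below 0 without the scaling.

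**Figure D5:**
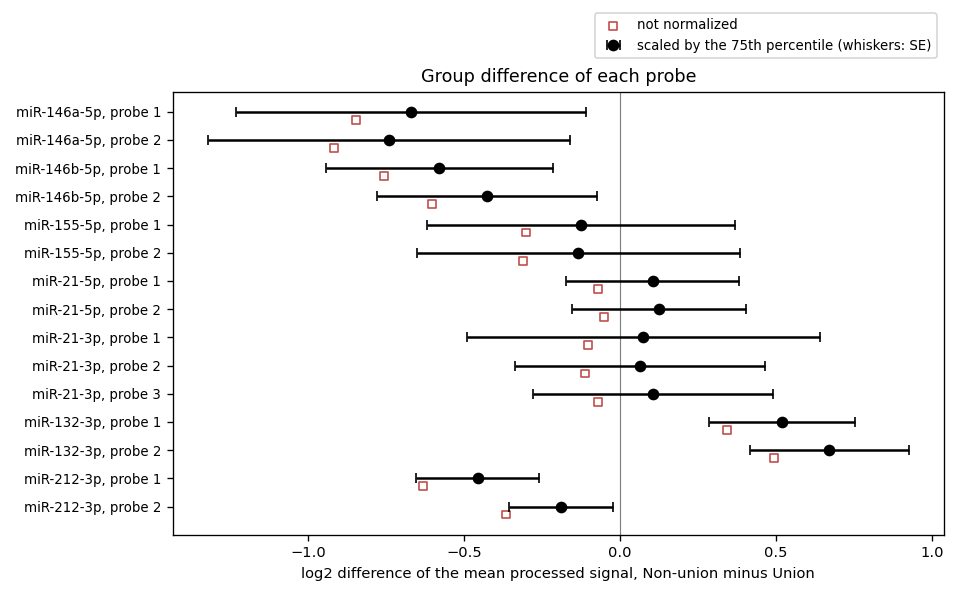
Log2 difference, Non-union minus Union (x axis), of each of the 15 tested probes, scaled by the 75th percentile of the array with its SE (black) and without scaling (red squares). Probes of 1 member have the same sign on each scale, with those of miR-212-3p at -0.46 and -0.19 when scaled. Only those of miR-132-3p are above 0 on both scales.

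The strength of the signals limits what can be read from the dim members. Of 40 spots, between 19 and 40 were well above background for miR-132-3p, 19 or 20 for miR-21-3p, 23 to 40 for miR-155-5p, 25 to 40 for miR-146b-5p and 34 to 40 for miR-146a-5p. All 40 were so on every array for miR-21-5p and miR-212-3p. The error that the scanner software gave was 7.51% to 7.63% of the merged signal for miR-21-5p, 8.12% to 8.69% for miR-212-3p, and at most 11.0% for miR-146a-5p, miR-146b-5p, miR-155-5p and miR-21-3p. Only for miR-132-3p did it reach 17.6%, on P18.

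Other miRs known to respond to inflammatory signals did not pass the adjusted test either. Of a list of 15, 10 were detected on every array, 3 (both arms of miR-147 and miR-187-3p) on none, and both arms of miR-9, which NF-κB induces in neutrophils and monocytes, on P20 alone. In the Non-union group, 184 of all 310 tested miRs were higher and 126 lower. Of the 10 listed miRs, 7 were higher and 3 lower, with a median difference of 0.19 against 0.15 over all tested miRs. The scaling moved this split, from 6 higher and 4 lower without normalization (median 0.10) to 9 higher and 1 lower with the 75th percentile over all murine miRs (median 0.34). At an unadjusted limma p under 0.05 there was 1 of the 10, against 43 of 310 tested miRs. It was miR-181b-5p, with 0.66 (SE 0.26, limma adjusted p = 0.313), and after adjustment there was 0. MiR-125a-5p (0.41), miR-99b-5p (0.48) and let-7e-5p (0.31), which come from 1 cluster, lay above the median of all tested miRs, and miR-10a-5p (-0.052), miR-16-5p (-0.038) and miR-15a-5p (-0.14) lay below 0. The mean over the 10 was 8.89 ± 0.12 (SD, n = 4) and 8.69 ± 0.30 (SD, n = 4), a difference of 0.20 that was 0.31 without P20. No test of this list mean was planned, and the list was chosen with earlier results of these data known, so none is given.

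The tested miRs most like each member were found from the mean absolute difference of log2 profiles over the 8 arrays, each centred on its own mean. MiR-142-3p came nearest to miR-146a-5p, at 0.15, followed by miR-139-5p at 0.17. Nearest to miR-146b-5p were both arms of miR-340, with 0.11 and 0.14. MiR-155-5p had miR-326-3p at 0.22 and miR-139-5p at 0.26. For miR-132-3p these were miR-543-3p at 0.19 and miR-181b-5p at 0.20, and for miR-212-3p they were miR-126-5p and miR-30b-5p, both at 0.14. MiR-21-5p had miR-674-3p at 0.11 and let-7e-5p at 0.12, and miR-21-3p had miR-219-5p at 0.12 and miR-19a-3p at 0.16. Among the members, miR-146a-5p lay 0.19 from miR-146b-5p and the arms of miR-21 lay 0.19 from each other, but miR-132-3p lay 0.64 from its cluster partner miR-212-3p.

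The highest and lowest values of miR-132-3p fell on other arrays than P20. The cartilage and mesenchymal miRs were higher in the Non-union group in 4 of 4 cases each, and so they were under every scaling tried. All had an unadjusted limma p under 0.05, and 0 passed after adjustment. Of all 310 tested miRs, 184 were higher in the Non-union group, 30 of them at an unadjusted limma p under 0.05. The cartilage means were 7.51 ± 0.94 against 6.11 ± 0.60, and the mesenchymal means 9.59 ± 0.45 against 8.71 ± 0.53 (SD, n = 4 each). No test of these list means was planned, and the lists were chosen with earlier results of these data known, so none is given. On P19, where these lists lay within the Non-union range, miR-132-3p had the highest Union value. On P15 and P16, which held the highest values of the cartilage list, its normalized signal was highest as well, but in merged signal P16 was its lowest Non-union array. The part of the cell makeup in the difference of miR-132-3p was not tested.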

How the data were processed

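The authors hybridized Cy3-labelled total RNA of 8 calluses to the 8 arrays of 1 Agilent slide. The scanner images were read with Agilent Feature Extraction, version 10.10.1.1 per the submitters' processing notes and file headers. The deposited scanner output holds intensity values per spot, a background-corrected signal intensity of each miR merged over its 40 spots, its error and a detection call. The authors also deposited a table of log2 values, used here as an alternative. For all 1079 murine miRs the merged signal was put on the log2 scale and then quantile normalized, in the order of the study's methods, and the 310 detected on all arrays were compared with limma 3.58.1 in R 4.3.3 (lmFit and eBayes, two-sided). Single values were tested over all 70 arrangements of the arrays. Python 3.11.15 with numpy 2.4.6 and pandas 2.3.3 read the files, and matplotlib 3.10.9 drew the figures. The fit was tested on simulated data.

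The members and lists were chosen with earlier results of these data known. Named were all members, the list members and the 2 miRs most like each detected member. Alternatives were other normalizations, processed spot signals (values at or below 0 set to 0.1), other filters on dim miRs, normexp on median spot signals with an offset of 50, a floor of 1, the authors' table, the t-test as a second test, and each array left out in turn. Arrays give no depth, and their number limits the precision. Row and group coincide, so that no block was fitted. Sequences and coordinates are those of RefSeq (GRCm38.p6). The array design names a different assembly. Other assays of the study were not used here.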

Additional observations from a re-analysis of the deposited data

Results flagged for a closer look

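Dixon's ratio, the gap of the highest or lowest array to its neighbour over the range of the group, was computed for 22 groups of 4 arrays and exceeded its 95% critical value for 4 values in 5. Chance flags about 1 in 20 groups. P20 stood above the other Union arrays in miR-146a-5p (8.64 against 6.34 to 6.60, ratio 0.888), in miR-146b-5p (7.72 against 6.37 to 6.55, ratio 0.866) and in the mean of the leukocyte miRs (9.36 against 8.04 to 8.20, ratio 0.876), all in normalized log2 signal. P14 stood below the other Non-union arrays in miR-21-3p (3.47 against 4.20 to 4.29, ratio 0.898) and in miR-21-5p (14.07 against 14.70 on each of the others, ratio 1.0). The values of miR-21-5p are equal because its place among the signals of those arrays was the same, and in merged signal P16 and not P14 was the lowest of that group.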

How the results depend on the processing

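The results were recomputed under 20 alternatives, 16 for the within-array pairs and 9 for the probes. MiR-132-3p, miR-146a-5p, miR-146b-5p and miR-212-3p kept their direction in all 20, and in all 20 only 1 member had an unadjusted p under 0.05. With 1 array left out, the number of members with an adjusted p under 0.05 ranged from 0 to 1. The 1 was miR-132-3p without P19, where the non-member miR-214-5p had the same limma adjusted p of 0.0473. MiR-155-5p ranged from -0.42 to 0.30, and was above 0 only without P20. Without normalization the differences of miR-21-3p and miR-21-5p turned to -0.084 and -0.062. With 1 array left out, miR-132-3p minus miR-212-3p ranged from 1.03 to 1.47. Each of the 4 settings without a Non-union array gave an exact permutation p of 0.0571, at changes of 1.07 to 1.34. Each of the 4 without a Union array gave 0.0286, the smallest possible with 1 array left out. Normexp lowered miR-132-3p minus miR-212-3p to 0.24 (exact permutation p = 0.114) and turned miR-146a-5p minus miR-146b-5p to 0.32. With 1 array left out, the within-array difference of the miR-21 arms changed by -0.24 (without P20) to 0.15, with -0.0055 without P14, and it reached 0.24 with normexp. Leaving out 1 array moved the probes of miR-155-5p from -0.36 to 0.27 and from -0.40 to 0.29, those of miR-21-3p from -0.10 to 0.51, from -0.14 to 0.36 and from -0.077 to 0.37, and 1 of miR-21-5p from -0.041 to 0.32. Without scaling, the probes of miR-21-3p were at -0.10, -0.11 and -0.071 and those of miR-21-5p at -0.072 and -0.052. The cause of these changes was not tested. No paired analysis was possible because the groups share no specimen numbers. The planned pair of the miR-132 arms could not be computed, as miR-132-5p was not detected. Signal over background limits miR-132-3p and miR-21-3p most, with as few as 19 of 40 spots well above background.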
